A study of Mus musculus with 8 samples.

Results

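The 8 E2F transcription factors E2f1 to E2f8, with Foxm1 and Mybl2, were followed in irradiated and non-irradiated mouse colon fibroblasts. These 10 genes were taken by symbol, with earlier results of these data known, from the 55573 genes counted in every library, and all 10 were among the 15259 genes abundant enough to be tested. Irradiated cells had received 3 fractions of 2 Gy, and non-irradiated cells none. Both groups were colon fibroblasts of the C57BL6/J strain, grown in 10% FBS and Advanced DMEM F12 on culture plates, and exposed to APTKA-conditioned medium, an abbreviation left without explanation in the labels. There were 4 irradiated and 4 non-irradiated libraries of polyA RNA, numbered I to IV in the sample titles and collected 72 h after the time of the first dose. All libraries used here carry the conditioned medium, so its own effect is part of both groups. The samples are called independent in the design text, which does not say whether animals or cultures were separate. The p-values therefore cover only the variation among these 8 libraries, part of which may be technical.

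E2F factors bind DNA mostly as dimers with DP proteins and control genes of DNA replication and cell division. E2f1, E2f2 and E2f3 are called activators and are held back by the retinoblastoma protein Rb1. E2f4 and E2f5 are canonical repressors that act with the related pocket proteins Rbl1 and Rbl2, E2f6 represses without a pocket protein, and E2f7 and E2f8 are atypical repressors that bind without a DP partner and are themselves E2F targets. Later in the cycle the MuvB core complex joins Mybl2 (B-Myb) and then Foxm1, a forkhead factor, at promoters of genes for mitosis. In resting cells the same core sits on these genes with a pocket protein and E2f4, as the DREAM complex, through a promoter element called CHR.

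Foxm1 fell by 42.9% in irradiated fibroblasts, whereas none of the 8 E2F genes passed the test, nor did Mybl2. All 28 genes listed as Foxm1 and Mybl2 targets of G2 and mitosis fell, and so did 20 of 33 listed E2F targets of S phase entry and DNA replication, where 4.15% of all tested genes were called lower and 2.59% higher. Among the E2F genes, the atypical repressors E2f7 and E2f8 had the lowest estimates, which did not pass the adjusted threshold, and the scarce E2f2 was lower than E2f8 in 5 of 18 alternative settings.

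Promoter sequences are shown for E2f3, E2f7 and E2f8, which have an E2F or CHR word before the start. A target gene of each kind is set beside them, because the E2F and CHR words occur at different shares in the target lists described further on. E2f2, whose E2F word begins 39 bases after its start, is not shown. The sequences are the 250 bases before the RefSeq start on the GRCm38.p6 assembly, in the direction of the gene, with the matched words in capitals. The E2F words searched were TTTCCCGC, TTTCGCGC, TTTGCCGC and TTTGGCGC. The CHR words were TTTGAA and TTCGAA, the CCAAT box was CCAAT, the forkhead word was TGTTTAC and the MYB word TAACGG. Both strands were read, so a match on the other strand appears as its reverse complement, such as GCGGGAAA for TTTCCCGC. The E2f3 window lies at chr13:29986064-29986313 (minus strand), E2f7 at chr10:110745189-110745438 (plus strand), E2f8 at chr7:48881597-48881846 (minus strand), Mcm6 at chr1:128359706-128359955 (minus strand) and Cdc20 at chr4:118437344-118437593 (minus strand).
E2f3: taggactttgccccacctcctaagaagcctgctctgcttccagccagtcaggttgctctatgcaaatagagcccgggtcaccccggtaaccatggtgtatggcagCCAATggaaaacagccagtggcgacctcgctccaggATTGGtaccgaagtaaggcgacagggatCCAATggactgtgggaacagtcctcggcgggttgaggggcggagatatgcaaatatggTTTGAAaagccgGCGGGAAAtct
E2f7: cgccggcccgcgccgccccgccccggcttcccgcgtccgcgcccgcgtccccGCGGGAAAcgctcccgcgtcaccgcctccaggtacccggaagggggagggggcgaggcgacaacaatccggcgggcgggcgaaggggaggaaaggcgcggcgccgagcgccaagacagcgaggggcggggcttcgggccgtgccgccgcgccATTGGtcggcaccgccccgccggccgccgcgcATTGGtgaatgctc
E2f8: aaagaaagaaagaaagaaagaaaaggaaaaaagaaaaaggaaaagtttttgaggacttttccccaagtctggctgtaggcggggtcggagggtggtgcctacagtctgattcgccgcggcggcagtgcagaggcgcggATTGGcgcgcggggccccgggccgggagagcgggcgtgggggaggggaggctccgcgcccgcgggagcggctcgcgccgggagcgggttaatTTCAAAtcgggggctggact
Mcm6: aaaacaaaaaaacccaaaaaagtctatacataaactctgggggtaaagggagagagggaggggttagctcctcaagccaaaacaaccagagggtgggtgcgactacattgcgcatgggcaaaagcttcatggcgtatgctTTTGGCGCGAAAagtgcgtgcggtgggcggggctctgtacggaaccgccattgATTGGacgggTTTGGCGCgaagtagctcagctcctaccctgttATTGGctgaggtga
Cdc20: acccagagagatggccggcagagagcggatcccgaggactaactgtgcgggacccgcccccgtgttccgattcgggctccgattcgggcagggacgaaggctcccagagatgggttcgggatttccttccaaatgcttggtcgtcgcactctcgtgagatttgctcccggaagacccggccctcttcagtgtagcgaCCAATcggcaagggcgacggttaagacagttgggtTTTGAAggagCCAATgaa
In E2f3 the E2F word begins 11 bases before the start and a CHR word 23 bases before it, with 3 CCAAT boxes at 145, 109 and 81 bases. E2f7 has an E2F word 198 bases and CCAAT boxes 46 and 14 bases before its start. E2f8 has a CHR word 20 bases and a CCAAT box 112 bases before its start, and no E2F word. Mcm6, part of the replicative helicase, has 3 E2F words, of which the pair at 110 and 106 bases overlaps and is 1 stretch of letters. Cdc20, which activates the anaphase-promoting complex, has a CHR word 18 bases before its start and CCAAT boxes at 53 and 8 bases.

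Over windows from 250 bases before to 50 bases after the start, 7 of the 10 members had an entry in the RefSeq promoter table, which left out E2f4, E2f5 and Foxm1. An E2F word occurred in 3 of these 7 (E2f2, E2f3 and E2f7), against 487 of 16520 promoters (2.95%) of all protein-coding genes in the table. A CHR word occurred in 2 of the 7 (E2f3 and E2f8), against 17.3% of all promoters, and a CCAAT box in 4 of the 7, against 38.8%. The MYB word was found once, in E2f6, against 2.86% of all promoters, and the forkhead word in 0 of the 7, against 2.95%. Both target lists were searched in the same way. An E2F word was present in 12 of 26 G1/S target promoters with an entry (46.2%) and in 1 of 23 G2/M target promoters (4.35%). A CHR word together with a CCAAT box was present in 3 of 26 G1/S target promoters (11.5%) and in 17 of 23 G2/M target promoters (73.9%), against 7.17% of all promoters. The RefSeq start differs from the GENCODE start for some genes. For E2f1 it lies 466 bases downstream, so that its window falls wholly inside the GENCODE gene and says nothing of the sequence before the GENCODE start. The same held for 4 of the 26 G1/S windows, 1 of the 23 G2/M windows and 19.6% of all windows. Without these windows, an E2F word was present in 3 of 6 members, 9 of 22 G1/S targets (40.9%), 1 of 22 G2/M targets (4.55%) and 3.21% of all promoters. A CHR word with a CCAAT box was then present in 2 of 22 G1/S targets (9.09%), 17 of 22 G2/M targets (77.3%) and 6.96% of all promoters. A word match is a description of letters, not of a bound site. The 2 lists were made of genes known as targets of these factors. A higher share of a word than in all promoters is therefore no independent evidence that they are targets.

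The libraries held 30203137 to 36497990 counts in the irradiated group and 28731227 to 37157216 in the non-irradiated group. Levels are given as CPM, counts relative to the library size after TMM scaling, as mean ± SD over 4 libraries (n = 4). A gene was called at a Benjamini-Hochberg adjusted p under 0.05 in the edgeR quasi-likelihood test over all 15259 tested genes. In all, 395 genes (2.59%) were called higher and 634 (4.15%) lower, and the median log2 fold change was 0.0009. The count of higher genes fell to 221, 234 and 257 without irradiated IV, irradiated III and non-irradiated I, and leaving out irradiated IV left 415 genes lower. Mitochondrial 12S and 16S rRNA reached 15129 and 15263 CPM of all counts in irradiated I and II, against 4358 and 5934 in irradiated III and IV and 4178 to 5915 in the non-irradiated libraries. All 10 fibroblast markers were abundant enough to be tested, at summed CPM of 14790 to 16110 in irradiated and 16240 to 19070 in non-irradiated libraries. Col1a2, a collagen chain, and Vim (vimentin) were called lower among them. Summed CPM of 8 epithelial markers was 1.029 to 1.582 in irradiated and 0.9204 to 2.098 in non-irradiated libraries, and that of 7 leukocyte markers was 4.087 to 4.536 in irradiated and 3.057 to 4.674 in non-irradiated libraries. Endothelial markers summed to 4.571 to 5.396 CPM in irradiated and 4.005 to 5.023 CPM in non-irradiated libraries. Smooth muscle and pericyte markers summed to 36.90 to 49.75 CPM in irradiated and 43.20 to 50.77 CPM in non-irradiated libraries, and glial markers to 0.6608 to 1.219 CPM in irradiated and 0.5956 to 1.229 CPM in non-irradiated libraries. No tested marker of these other cell types was called.

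Foxm1 (ENSMUSG00000001517, chromosome 6, 128362967 to 128376146, plus strand, mm10) promotes transcription of genes for entry into and passage through mitosis. Its level was 6.831, 6.781, 6.966 and 7.711 CPM in irradiated libraries I to IV, against 12.80, 13.76, 10.37 and 12.67 CPM in non-irradiated libraries I to IV. All irradiated libraries lay below all non-irradiated ones. The group means were 7.072 ± 0.433 CPM in irradiated and 12.40 ± 1.44 CPM in non-irradiated cells. The log2 fold change was -0.81 (SE 0.0905, 95% interval -1.003 to -0.614), with an edgeR adjusted p of 0.000117. Of all tested genes, 0.262% had a larger fall, which placed Foxm1 at position 41. With irradiated I and II, the libraries of high mitochondrial rRNA, both left out, the log2 fold change was -0.76 (edgeR adjusted p = 0.0033). In bulk RNA, fewer cells that express a gene and less of its RNA per cell cannot be told apart. Of its exon bases, 2.5% are shared with Tex52 and 1.69% with Gm44596, both on its own strand.

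**Figure D1:**
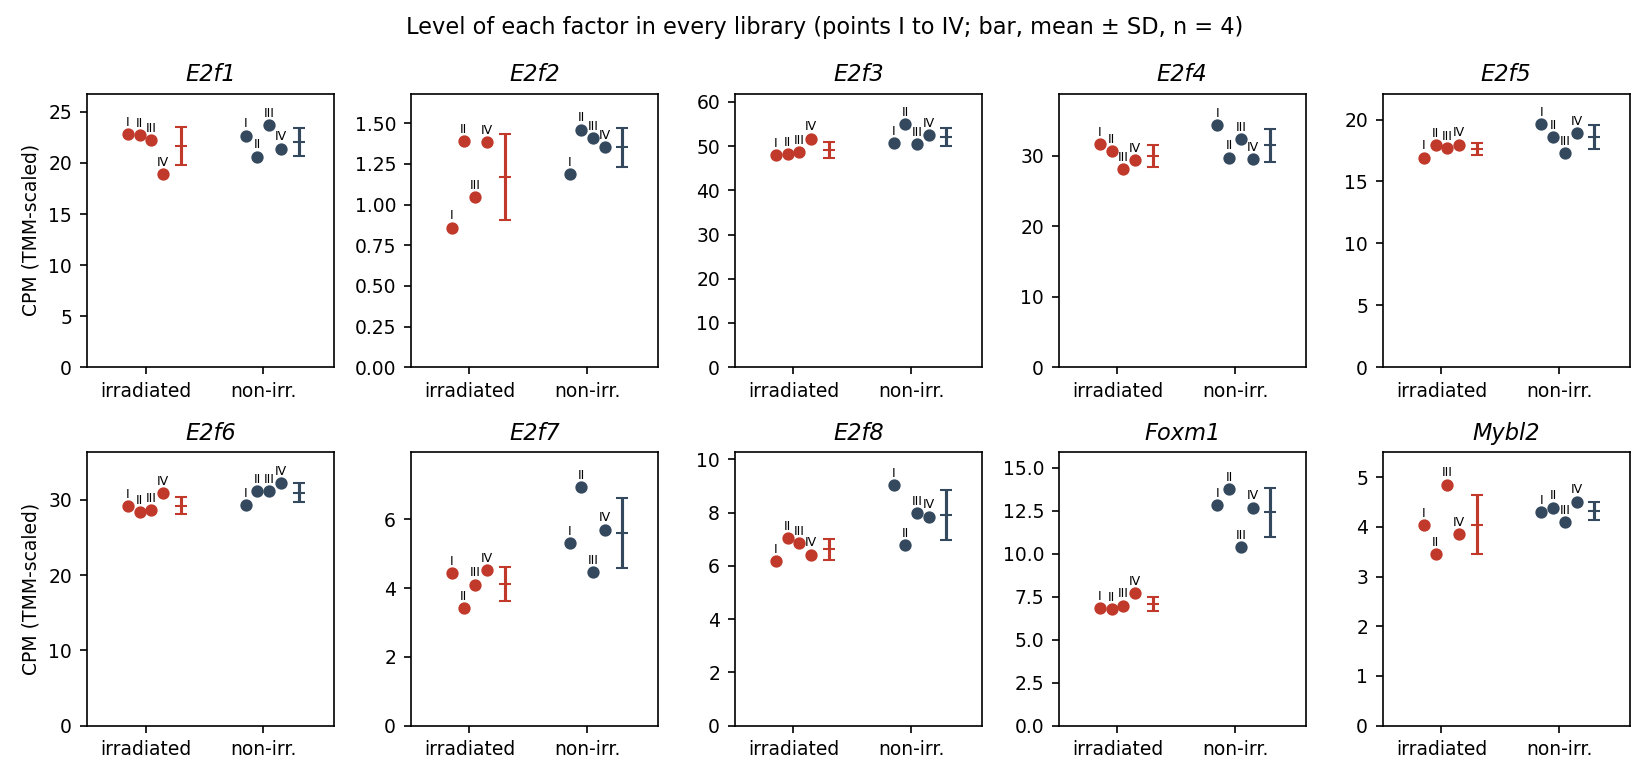
Level of each of the 10 factors in CPM (TMM-scaled, axis from 0) in irradiated libraries (red) and non-irradiated libraries (dark blue), with points for libraries I to IV and a bar for mean ± SD (n = 4). The groups are fully separated for Foxm1, at 6.781 to 7.711 CPM in irradiated and 10.37 to 13.76 CPM in non-irradiated libraries, and overlap for the other 9 factors.

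Mybl2 (chromosome 2, 163054687 to 163084688, plus strand), which acts on the MuvB core before Foxm1, had 4.038, 3.451, 4.846 and 3.855 CPM in irradiated libraries I to IV and 4.290, 4.387, 4.088 and 4.506 CPM in non-irradiated libraries I to IV. The groups overlapped, with the highest and the lowest value both in irradiated libraries. The means were 4.047 ± 0.586 CPM in irradiated and 4.318 ± 0.177 CPM in non-irradiated cells, and the log2 fold change was -0.09 (SE 0.109, 95% interval -0.32 to 0.15, edgeR adjusted p = 0.707). The intervals of Foxm1 and Mybl2 do not overlap, although the difference between these genes was not tested. The estimate for Mybl2 was 0.02 with irradiated I and II left out. Myb, a blood cell paralog, was too low to be tested. Mybl1 (A-Myb), known for male meiosis, stood at 60.23 ± 4.13 CPM in irradiated and 50.93 ± 5.62 CPM in non-irradiated cells. Its log2 fold change was 0.24 (SE 0.0709, edgeR adjusted p = 0.0596). It was called higher by DESeq2 (adjusted p = 0.0185), without the abundance filter (0.000242), with the replicate block (0.0249), with a GC and length offset (0.00497) and without non-irradiated II (0.0227) or IV (0.0487), over a range of 0.000242 to 0.281.

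In the count of all 10 members, 0 were called higher and 1 lower, against 2.59% and 4.15% of all tested genes. For 1 member, lower in irradiated libraries, the groups shared no part of their CPM range, against 6.13% of tested genes not overlapping in the higher and 8.07% in the lower direction. All 10 log2 fold changes were below 0, with a median of -0.09, whereas 49.7% of all tested genes were below 0 with a median of 0.0009. At an unadjusted edgeR p under 0.05, 0 members were higher and 3 lower (Foxm1, E2f7 and E2f8), against 9.50% of all tested genes higher and 11.7% lower. DESeq2 called 0 higher and 2 lower, against 4.18% and 6.01% of the 12892 genes to which it gave an adjusted p. For limma-voom the members called were 0 higher and 1 lower, against 2.44% and 4.02% of tested genes. The count of members called lower was 2 without non-irradiated II, where E2f8 was added, beside 611 of all 15486 genes tested there. It was 2 without non-irradiated III, where E2f7 was added, beside 581 of all 15502 genes. For the 8 E2F genes alone, edgeR called 0 in either direction. At an unadjusted p under 0.05 there were 0 higher and 2 lower of 8, beside the 9.50% and 11.7% of all tested genes. DESeq2 called 1 of the 8 lower, beside its 6.01%, and limma-voom 0, beside its 4.02%.

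**Figure D2:**
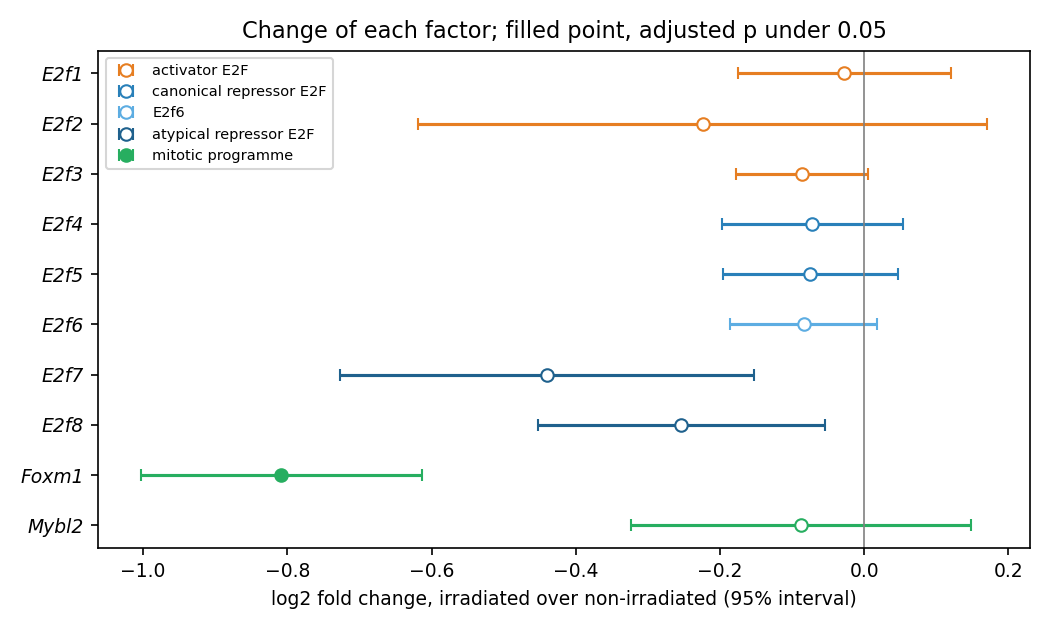
Log2 fold change (irradiated over non-irradiated) of each factor, with its 95% interval as a line and colours for the class; the filled point marks an adjusted p under 0.05. Foxm1 at -0.81 is the filled point, and among the E2F genes the intervals of E2f7 (-0.73 to -0.15) and E2f8 (-0.45 to -0.05) lie below 0 without an adjusted p under 0.05.

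The activator E2f1 (chromosome 2, 154559407 to 154569892, minus strand), which drives S phase genes and can promote cell death, had 22.79, 22.73, 22.22 and 18.88 CPM in irradiated libraries I to IV and 22.67, 20.60, 23.69 and 21.40 CPM in non-irradiated libraries I to IV. The groups overlapped, with irradiated IV lowest of all. The log2 fold change was -0.03 (SE 0.0686, 95% interval -0.18 to 0.12, edgeR adjusted p = 0.867), and it was 0.03 without irradiated IV and 0.01 without non-irradiated III. E2f3 (chromosome 13, 29906575 to 29986063, minus strand), the most abundant activator by CPM, had 47.98, 48.13, 48.57 and 51.70 CPM in irradiated libraries and 50.64, 54.90, 50.43 and 52.44 CPM in non-irradiated libraries I to IV. Only irradiated IV reached into the non-irradiated range. Its log2 fold change was -0.09 (SE 0.0424, 95% interval -0.18 to 0.01, edgeR adjusted p = 0.265). E2f2 (chromosome 4, 136172394 to 136196057, plus strand) was scarce, at 332 counts over all 8 libraries. It had 0.8574, 1.392, 1.046 and 1.384 CPM in irradiated and 1.186, 1.462, 1.408 and 1.355 CPM in non-irradiated libraries I to IV, and the groups overlapped. Its log2 fold change of -0.22 had an interval of -0.62 to 0.17 (edgeR adjusted p = 0.53). It was -0.10 without irradiated I and -0.32 without irradiated II. A fall as large as that of E2f7 was not separable from none at this depth.

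The canonical repressors and E2f6 had changes of similar size to those of E2f1 and E2f3. E2f4 (chromosome 8, 105297663 to 105305370, plus strand), the main E2F of the DREAM complex, had 31.64, 30.66, 28.03 and 29.33 CPM in irradiated and 34.32, 29.69, 32.30 and 29.49 CPM in non-irradiated libraries I to IV. Its log2 fold change was -0.07 (SE 0.0583, edgeR adjusted p = 0.527), and 0.02 with non-irradiated I and III left out. E2f5 (chromosome 3, 14578641 to 14606309, plus strand) averaged 17.63 ± 0.487 CPM in irradiated and 18.59 ± 0.977 CPM in non-irradiated cells, a log2 fold change of -0.07 (SE 0.0564, edgeR adjusted p = 0.491). E2f6 (chromosome 12, 16810963 to 16839742, plus strand), which works within a Polycomb complex, averaged 29.26 ± 1.15 CPM in irradiated and 30.98 ± 1.22 CPM in non-irradiated cells, a log2 fold change of -0.08 (SE 0.0474, edgeR adjusted p = 0.338). In all 3 genes the groups overlapped, and the 3 adjusted p-values stayed over the threshold under each of 18 alternative settings.

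The atypical repressors had lower estimates than E2f4, E2f5 and E2f6. E2f7 (chromosome 10, 110745439 to 110787384, plus strand) had 4.425, 3.421, 4.102 and 4.515 CPM in irradiated and 5.302, 6.930, 4.467 and 5.704 CPM in non-irradiated libraries I to IV. The groups touched through non-irradiated III, which lay just under irradiated IV, while the other 3 non-irradiated libraries were above all irradiated ones. The log2 fold change was -0.44 (SE 0.133, 95% interval -0.73 to -0.15) at an unadjusted p of 0.00551 and an edgeR adjusted p of 0.0674. E2f7 was called lower by DESeq2 (adjusted p = 0.0291), without the abundance filter (0.00282), without non-irradiated III (0.0211) and with non-irradiated I and III left out (0.015), and in none of the other 14 settings, over a range of 0.00282 to 0.261. Of all tested genes, 2.72% had a larger fall.

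E2f8 (chromosome 7, 48866429 to 48881596, minus strand) had 6.167, 7.053, 6.855 and 6.426 CPM in irradiated and 9.034, 6.771, 7.986 and 7.846 CPM in non-irradiated libraries I to IV. Non-irradiated II lay within the irradiated range and the other 3 above it. The log2 fold change was -0.25 (SE 0.0923, 95% interval -0.45 to -0.05) at an unadjusted p of 0.0162 and an edgeR adjusted p of 0.125. Without non-irradiated II the edgeR adjusted p was 0.0461, and over all settings it ranged from that value to 0.44. Of the exon bases of E2f8, 11.2% are shared with Gm2788 on the opposite strand. The share for E2f7 and 1700020G17Rik is 0.955% and that for E2f5 and 1810022K09Rik is 1.46%, also on opposite strands. Reads of such partners cannot be told apart without strand, and the strand setting is not given in the sources used here.

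Levels can be compared between genes only per length, and CPM per kb of exon was used for this. E2f4 was the highest factor at 12.20 CPM per kb in irradiated and 12.83 in non-irradiated cells, followed by E2f5 at 9.896 in irradiated and 10.43 in non-irradiated cells. E2f3 stood at 9.043 CPM per kb in irradiated and 9.597 in non-irradiated cells. E2f1 followed at 6.866 ± 0.592 CPM per kb in irradiated and 7.003 ± 0.433 in non-irradiated cells, and E2f6 at 5.166 in irradiated and 5.471 in non-irradiated cells. Foxm1 was the sixth at 1.229 CPM per kb in irradiated and 2.155 in non-irradiated cells, then E2f8 at 1.217 in irradiated and 1.453 in non-irradiated cells. Mybl2 had 0.8738 CPM per kb in irradiated and 0.9321 in non-irradiated cells, E2f7 had 0.4568 in irradiated and 0.6217 in non-irradiated cells, and E2f2 had 0.2397 in irradiated and 0.2771 in non-irradiated cells. The order of the 10 mean levels was the same in both groups. The spreads of E2f5 and E2f3 met in both groups, and in irradiated cells Foxm1 and E2f8 overlapped too, while all other neighbours in the order were separated in every library. The length used is the union of all annotated exons. It was 5663 bases for E2f6 and 9009 for E2f7, against median annotated transcripts of 2362 and 827 bases. The order and the class sums below could differ with another length, which was not tried.

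**Figure D3:**
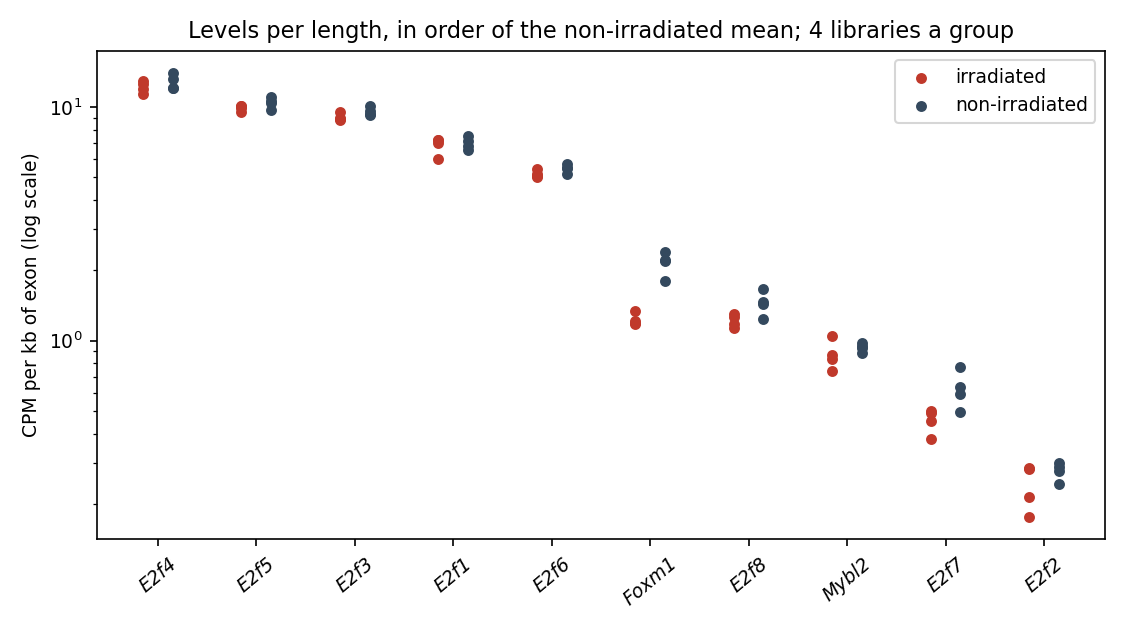
Levels of the 10 factors in CPM per kb of exon on a log axis, with irradiated libraries (red) left of non-irradiated ones (dark blue) and 1 point a library, in the order of the non-irradiated mean. E2f4 is highest, at a mean of 12.20 CPM per kb in irradiated and 12.83 in non-irradiated cells, E2f2 is lowest, and Foxm1 and E2f8 overlap in irradiated cells.

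Activator and repressor E2Fs were set against each other by summed CPM per kb. Activators summed to 16.24, 16.36, 16.20 and 15.79 in irradiated and 16.76, 16.94, 17.09 and 16.72 in non-irradiated libraries I to IV. The groups did not overlap, at 16.15 ± 0.246 in irradiated and 16.88 ± 0.171 in non-irradiated cells, although no activator passed the test by itself. All repressors together summed to 28.94 ± 0.539 CPM per kb in irradiated and 30.80 ± 1.09 in non-irradiated cells, also without overlap. The ratio of activators to all repressors was 0.558 ± 0.0142 in irradiated and 0.549 ± 0.0221 in non-irradiated cells, and the groups overlapped. Within the repressors, the atypical pair summed to 1.624, 1.675, 1.715 and 1.682 CPM per kb in irradiated and 2.248, 2.013, 1.963 and 2.075 in non-irradiated libraries I to IV. Every irradiated library was below every non-irradiated one. The ratio of activators to atypical repressors was 9.651 ± 0.283 in irradiated and 8.159 ± 0.539 in non-irradiated cells, without overlap. Taken singly, each activator and both atypical repressors overlapped between groups. Within groups E2f1 and E2f3 varied in opposite ways (r = -0.947), as did E2f7 and E2f8 (r = -0.71). Such opposite variation narrows the spread of the activator sum and of the atypical sum. Of single tested genes, 8.07% did not overlap in the lower and 6.13% in the higher direction, and no such share was computed for sums or ratios. Median log2 fold changes were -0.09 for the 3 activators, -0.07 for the 2 canonical repressors and -0.35 for the 2 atypical repressors, and the difference between classes was not tested.

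Deviations from the group means of log2 CPM over the 8 libraries described how the members varied within groups. E2f1 and E2f3 went opposite ways (r = -0.947), as did E2f7 and E2f8 (r = -0.71) and Foxm1 and E2f1 (r = -0.805), while Foxm1 and E2f7 went together (r = 0.828). Foxm1 and Mybl2 shared little of this variation (r = 0.2). The points share libraries, depth and base composition. Once the dependence of each library on transcript GC content and length had been removed, r was -0.652 for E2f1 and E2f3, -0.784 for E2f7 and E2f8, -0.864 for Foxm1 and E2f1 and 0.813 for Foxm1 and E2f7. The mean transcript GC content was 58.1% for E2f1 and 51.5% for E2f3, with a median of 50.3% over tested genes.

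Among 10017 other genes with an established symbol and at least 5 CPM, those most like each member were taken by Pearson r of log2 CPM over the 8 libraries. For Foxm1 they were Ncapg2, a condensin II subunit (r = 0.997, and 0.963 for deviations from group means), and Mrvi1 (r = 0.993 and 0.912). Ncapg2 averaged 31.18 CPM in irradiated and 46.78 CPM in non-irradiated cells. For E2f7 they were Rassf6 (r = 0.974) and Tnc, the matrix protein tenascin C (r = 0.972), and for E2f8 Adat2 and Tmem128 (r = 0.975 and 0.974). For E2f1 they were Ppp1ca, a catalytic subunit of protein phosphatase 1, and Jagn1 (r = 0.969 and 0.968). For E2f3 Cacna1c is given (r = 0.971), and for E2f2 they were Pfkfb4 and Poc1b (r = 0.912 and 0.908). For E2f4 they were Cmc1 and Rgp1 (r = 0.988 for both), for E2f5 Ralgps1 and Zfp354c (r = 0.975 and 0.949), for E2f6 Cntln and Apobec3 (r = 0.953 and 0.949) and for Mybl2 Dusp14 and Hddc2 (r = 0.926 and 0.889). These are the highest of 10017 correlations a member over 8 points, and they are given as a description.

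Partners and regulators of these factors were counted from fixed lists. Beside these counts, edgeR called 2.59% of all tested genes higher and 4.15% lower. The shares were 4.18% and 6.01% for DESeq2 and 2.44% and 4.02% for limma-voom. Of the DP partners, 0 of 2 were called: Tfdp1 had a log2 fold change of -0.07 (edgeR adjusted p = 0.418) and Tfdp2 of -0.10 (edgeR adjusted p = 0.141). At an unadjusted p under 0.05, 0 were higher and 1 lower of 2 (9.50% and 11.7% of all tested genes), and DESeq2 and limma-voom called 0. Of the 3 pocket proteins, Rbl1 (p107), itself a known E2F target, fell to 34.56 ± 2.68 CPM in irradiated cells, against 40.88 ± 0.473 CPM in non-irradiated cells. Its log2 fold change was -0.24 (SE 0.0519, edgeR adjusted p = 0.0123). Rb1, the retinoblastoma protein, stood at 44.68 ± 3.14 CPM in irradiated and 41.45 ± 1.87 CPM in non-irradiated cells (edgeR adjusted p = 0.268), and Rbl2 (p130) at 50.16 ± 2.44 CPM in irradiated and 50.53 ± 1.41 CPM in non-irradiated cells (edgeR adjusted p = 0.914). Of the 5 genes of the MuvB core, Lin9 fell to 23.72 ± 0.548 CPM in irradiated cells, against 28.02 ± 0.775 CPM in non-irradiated cells (log2 fold change -0.24, SE 0.0453, edgeR adjusted p = 0.00578). The calls of Rbl1 and Lin9 were lost with irradiated I and II left out (edgeR adjusted p = 0.151 and 0.0888). Lin37, Lin52, Lin54 and Rbbp4 had log2 fold changes of -0.08, 0.08, -0.09 and 0.01 and were not called.

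Of the 12 genes of the E2f6 Polycomb complex, edgeR called 0, with a median log2 fold change of 0.03. DESeq2 and limma-voom also called 0. The shares of all genes called higher and lower were 2.59% and 4.15% for edgeR and 4.18% and 6.01% for DESeq2. For limma-voom they were 2.44% and 4.02%. With shares this low, 0 of 12 does not set the list apart, and the same holds for the Foxo genes below. At an unadjusted p under 0.05, 1 of the 12 was higher and 0 lower, beside 9.50% and 11.7% of all tested genes. Cbx3, Pcgf6, L3mbtl2 and Mga had log2 fold changes of 0.20, 0.11, -0.09 and 0.02. The 3 Foxo genes, forkhead factors known to oppose Foxm1, had 0 calls by edgeR, DESeq2 and limma-voom, and 1 of the 3 was higher at an unadjusted p under 0.05, where 9.50% of all tested genes were. Their summed CPM was 446.8 to 460.9 in irradiated and 408.3 to 456.9 in non-irradiated libraries.

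The cyclins and kinases that phosphorylate pocket proteins had 0 of 9 called higher and 3 lower, beside 2.59% and 4.15% of all tested genes. The median log2 fold change of the 9 was -0.09. Ccna2, cyclin A2 of S phase and G2 and a known target of both E2F and MuvB, fell to 19.32 ± 0.877 CPM in irradiated cells, against 30.39 ± 3.43 CPM in non-irradiated cells (log2 fold change -0.65, SE 0.0738, edgeR adjusted p = 0.000126). Ccne1, cyclin E1 of S phase entry, fell to 9.594 ± 0.35 CPM in irradiated cells, against 12.29 ± 1.16 CPM in non-irradiated cells (log2 fold change -0.35, edgeR adjusted p = 0.0118). Cdk6, a kinase of D cyclins, fell to 113.3 ± 4.002 CPM in irradiated cells, against 127.9 ± 4.33 CPM in non-irradiated cells (log2 fold change -0.18, edgeR adjusted p = 0.0189). Ccnd2 (cyclin D2) had a log2 fold change of -0.06 (edgeR adjusted p = 0.595). The call of Ccne1 was lost with irradiated I and II left out (edgeR adjusted p = 0.0991). That of Cdk6 was lost there (0.0553) and without irradiated I (0.0614), irradiated III (0.0686) or non-irradiated I (0.0508).

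Of the 7 inhibitors of these kinases, 1 was called higher and 0 lower, beside 2.59% and 4.15% of all tested genes. The median log2 fold change of the 7 was 0.09. Cdkn1a (p21), the inhibitor induced by p53, had 544.4 ± 21.9 CPM in irradiated and 430.3 ± 34.6 CPM in non-irradiated cells, a log2 fold change of 0.34 (SE 0.0526, edgeR adjusted p = 0.00135). Cdkn2b (p15) stood at 5.418 ± 0.749 CPM in irradiated and 4.305 ± 0.426 CPM in non-irradiated cells (log2 fold change 0.33, edgeR adjusted p = 0.109). Cdkn2a and Cdkn1b had log2 fold changes of 0.12 and -0.05 and were not called. Of the 4 factors known to control the turnover of E2F or Foxm1 proteins, Fbxo5 (Emi1), an E2F target that inhibits the anaphase-promoting complex, fell to 7.438 ± 0.453 CPM in irradiated cells, against 9.672 ± 0.602 CPM in non-irradiated cells (log2 fold change -0.38, SE 0.0762, edgeR adjusted p = 0.0091). Skp2, a ubiquitin ligase subunit, fell to 17.08 ± 0.699 CPM in irradiated cells, against 19.73 ± 0.386 CPM in non-irradiated cells (log2 fold change -0.21, edgeR adjusted p = 0.0325). Ccnf and Fzr1 had log2 fold changes of -0.11 and -0.05 and were not called. The turnover list thus had 0 of 4 called higher and 2 lower, beside the same 2.59% and 4.15%. The call of Fbxo5 was lost with irradiated I and II left out (edgeR adjusted p = 0.1). The call of Skp2 was lost in 9 of 18 settings, among them without irradiated I (0.0593), II (0.0903) or IV (0.102) and without non-irradiated I (0.067), II (0.0744) or IV (0.0611).

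Of the 33 listed E2F targets of G1/S and replication, 0 were called higher and 20 lower, beside 2.59% and 4.15% of all tested genes. The median log2 fold change of the list was -0.34, in a range of -0.71 to 0.10. CPM did not overlap between groups for 23 of the 33, all lower in irradiated libraries. Of all tested genes, 8.07% did not overlap in the lower and 6.13% in the higher direction. Mcm3, a helicase subunit, fell to 34.68 ± 1.297 CPM in irradiated cells, against 52.42 ± 1.45 CPM in non-irradiated cells (log2 fold change -0.60, SE 0.0416, edgeR adjusted p = 5.18e-06). Pole, the leading-strand polymerase epsilon, fell to 26.32 ± 1.43 CPM in irradiated cells, against 42.45 ± 2.78 CPM in non-irradiated cells (log2 fold change -0.69, edgeR adjusted p = 1.32e-05). Mcm6 fell to 63.49 ± 1.599 CPM in irradiated cells, against 88.98 ± 4.53 CPM in non-irradiated cells (log2 fold change -0.49, edgeR adjusted p = 3.19e-05). Mcm6, called lower, and Mcm7, not called, are only examples from the 12 listed targets found with an E2F word. Mcm7 was picked after its values were seen, and a link between words and change was not tested. Rrm1, the large subunit of ribonucleotide reductase, had a log2 fold change of -0.07 (edgeR adjusted p = 0.477) and was not called. The summed level of the list was 1114 to 1194 CPM in irradiated and 1317 to 1374 CPM in non-irradiated libraries. With irradiated I and II left out, 14 of the 33 were called lower, beside 295 of all 15702 genes tested there.

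Beside 4.15% of all tested genes, all 28 listed Foxm1 and Mybl2 targets of G2 and mitosis were called lower in the test as described. The 28 targets were also called lower in each of 18 alternative settings. Their log2 fold changes ran from -1.01 to -0.33 with a median of -0.64. The summed level of the list was 567.3, 545.7, 577.3 and 568.1 CPM in irradiated and 819.8, 943.4, 798.4 and 922.5 CPM in non-irradiated libraries I to IV. The irradiated libraries lay close together, and all were below every non-irradiated one. Dlgap5, a spindle protein, fell to 12.81 ± 0.958 CPM in irradiated cells, against 25.82 ± 2.46 CPM in non-irradiated cells (log2 fold change -1.01, SE 0.0767, edgeR adjusted p = 1.08e-05). Cdc20 fell to 17.98 ± 1.04 CPM in irradiated cells, against 29.38 ± 1.17 CPM in non-irradiated cells (log2 fold change -0.71, edgeR adjusted p = 1.15e-05). Prc1, which bundles microtubules of the central spindle, and Top2a, a topoisomerase of chromosome segregation, had log2 fold changes of -0.64 and -0.55 (edgeR adjusted p = 1.15e-05 and 0.000298). The lists were drawn up with results of these libraries known and are no independent evidence of direction, and the difference between the target lists was not tested.

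**Figure D4:**
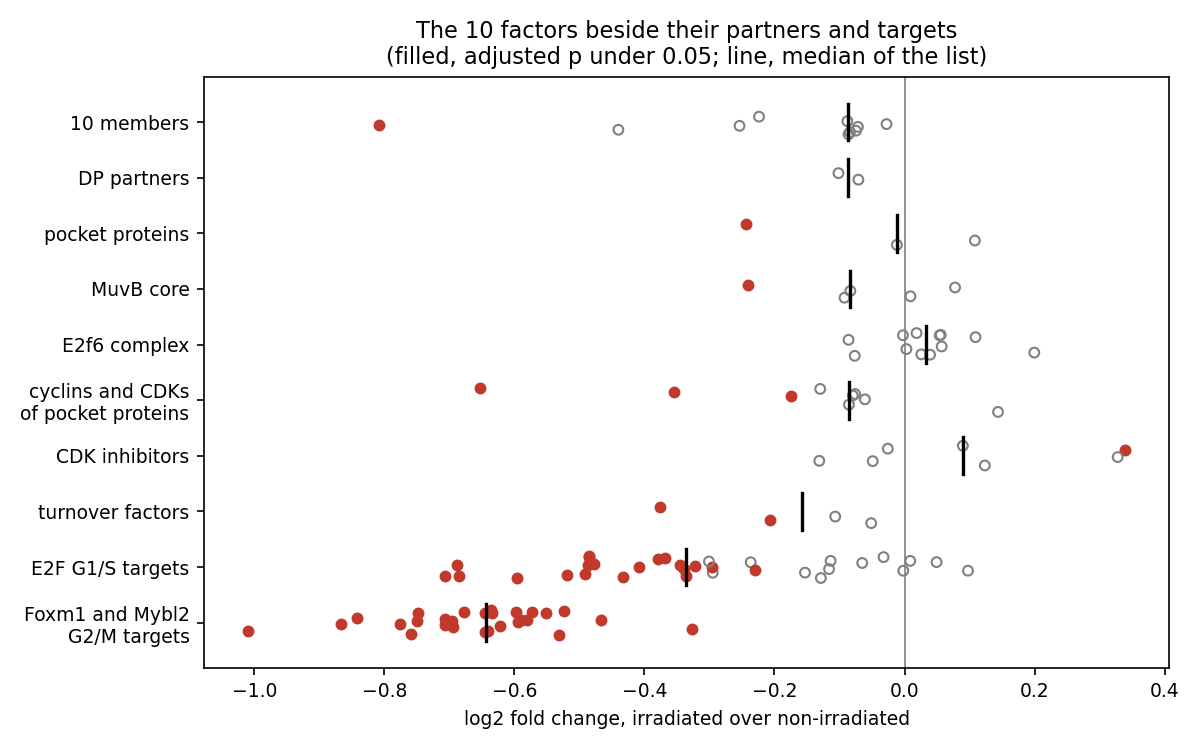
Log2 fold change (irradiated over non-irradiated) of each tested gene in the 10 members and in 9 lists of partners, regulators and targets; filled points passed an adjusted p under 0.05 and the black line is the median of the list. All 28 G2/M targets lie left of 0 at a median of -0.64, the G1/S targets spread from -0.71 to 0.10, and the members have a median of -0.09 with Foxm1 alone filled.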

How the data were processed

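Gene expression was measured by RNA sequencing of polyA RNA in 8 libraries; per the labels, the Qiagen RNeasy mini kit was used for extraction. The values deposited by the authors are raw read counts for each Ensembl gene, in whole numbers, 1 file per library, with no normalization. The submitters' processing notes name featureCounts 1.5.0-p1, STAR 2.5.2a and bcl2fastq 2.20.0.422, and the build mm10. For the annotation release, strandedness and multimapping reads, settings were not given in the sources used here. Symbols and coordinates came from GENCODE M21 (GRCm38), which named 55480 of 55573 identifiers. Promoters came from RefSeq (GRCm38.p6).

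Groups and numerals came from the sample titles and source names. In R 4.3.3 with edgeR 4.0.16, counts were scaled with TMM factors, filterByExpr (minimum count 10, minimum total 15) kept 15259 genes and left out 40314, and all 8 libraries entered a fit on group alone. P-values were Benjamini-Hochberg adjusted over all tested genes and called under 0.05. The SE of a log2 fold change came from the F statistic. The pipeline was tested on simulated data. Total counts of 28731227 to 37157216 per library set the precision; a count of 0 allows up to 3 counts, for counting error only. CPM per kb divides CPM by the union of exon lengths.

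The members and gene lists were chosen with earlier results of these data known. All 10 members are named. From short lists of partners every tested gene could be named, from longer lists the 3 genes of smallest adjusted p plus the most abundant other gene, and for each member the 2 genes of highest r. Foxo genes are given as counts, and a few genes are not reported here.

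Alternatives were upper-quartile and RLE factors, limma-voom (limma 3.58.1), DESeq2 1.42.0, no filter beyond 1 count, at least 1 CPM in 4 libraries, a replicate block by numeral, and omission of single libraries. A GC and length offset by library (loess span 0.5) and leaving out irradiated I and II or non-irradiated I and III were taken over from an earlier look at these data. The target list counts, the alternatives for named genes outside the members, the naming of Mcm7, the shares without promoter windows inside a gene and the correlations after the GC and length correction were chosen after seeing the data.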

Additional observations from a re-analysis of the deposited data

Results flagged for a closer look

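Among 20 sets of 4 member values checked for a library apart from the others of its group, 2 were found, both in irradiated IV; chance gives about 1 in 20. E2f1 stood at 18.88 CPM there, against 22.22 CPM in the nearest irradiated library, a gap of 0.854 of the range of the group. E2f3 stood at 51.70 CPM there, against 48.57 CPM in the nearest, a gap of 0.844 of the range. Without irradiated IV the log2 fold change of E2f1 was 0.03 in place of -0.03. With the trend on GC content and length removed, irradiated IV still deviated from its group mean by -0.20 for E2f1 and 0.05 for E2f3 on the log2 scale.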

How the results depend on the processing

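Foxm1 was called lower in all 18 alternatives, with log2 fold changes from -0.90 to -0.75 and adjusted p from 4.64e-18 to 0.0033. Of 180 values of members under alternatives, 170 kept their direction and side of the threshold, 5 passed it anew (E2f7 in 4, E2f8 in 1), 0 lost it and 5 changed sign. Members called lower numbered 2 with DESeq2, beside 6.01% of the genes to which it gave an adjusted p. They numbered 2 without the filter, beside 798 of all 32976 genes tested there. With non-irradiated I and III left out they numbered 2, beside 579 of 15843 genes. When a library was left out they numbered 1 to 2, beside 415 to 611 of 15438 to 15551 genes. Members called higher numbered 0 throughout. Genes called higher numbered 648 without the filter and 221 to 402 when a library was left out. Genes called lower numbered 295 with irradiated I and II left out and 415 to 611 when a library was left out. With non-irradiated I and III left out, where as many libraries remained, 579 genes were called lower. Signs changed with non-irradiated I and III left out for E2f1 (0.0476), E2f4 (0.0169), Rbl2 (0.0157), Mga (-0.0189), Ccnd2 (0.0359) and Fzr1 (0.0795), and with irradiated I and II left out for Mybl2 (0.0178), Rbl2 (0.0267) and Fzr1 (0.0070). With single libraries left out, E2f1 ran from -0.0575 to 0.0325, Rbl2 from -0.0348 to 0.0204, Rbbp4 from -0.0128 to 0.0315, Mga from -0.0006 to 0.0432 and Fzr1 from -0.1080 to 0.0027. Cdkn2b was called higher with irradiated I and II left out (0.0435). The cause of these shifts was not tested. With the replicate block 550 genes were higher and 802 lower, and 1 member was lower. The numerals were not taken as pairs in the main fit, because the labels do not say that they mark shared animals. Deviations of same-numbered libraries correlated at 0.025, -0.033, 0.275 and 0.147, which cannot settle whether the libraries were paired. The alternatives were not run for the Foxo genes or for the genes most like a member. At 332 counts, depth limits what can be said of E2f2.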

Other observations

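Of the 6 subunits of the MCM replicative helicase, all listed as E2F targets, Mcm2, Mcm3, Mcm4, Mcm5 and Mcm6 fell in irradiated cells, with log2 fold changes of -0.30, -0.60, -0.34, -0.68 and -0.49 (edgeR adjusted p from 5.18e-06 to 0.000544). Mcm7, chosen here after its values were seen, stood at 55.94 ± 2.41 CPM in irradiated and 54.08 ± 1.38 CPM in non-irradiated cells. Its log2 fold change was 0.05 (SE 0.0414, edgeR adjusted p = 0.54), and the groups overlapped. The promoter window of Mcm7, which lies inside the GENCODE gene, held 2 E2F words. The difference between Mcm7 and the other subunits was not tested.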
